A study of Rattus norvegicus with 8 samples.

Results

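The Slc25 genes encode the mitochondrial carriers, and the family was taken here as all genes whose annotated symbol starts with Slc25a and that were read by a probe set annotated to exactly 1 gene. This gave 38 genes and 51 probe sets, of 13810 genes so named and 31142 probe sets tested in all. On the array type called chip A there were 33 of 15866 probe sets, for 30 genes, and on chip B 18 of 15276, for 15 genes, with 7 genes on both. A further 2 Slc25a probe sets on chip A were annotated to more than 1 gene ID and were left out. The family was chosen by the chip A ratio of Slc25a34, one of the highest there, so the values of Slc25a34 are given as a description with no test, and it is left out of every count of calls below.

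Mitochondrial carriers sit mainly in the inner mitochondrial membrane and share a fold built from repeats of paired helices. Each moves a small set of solutes: nucleotides, phosphate, carboxylates, amino acids, carnitines, cofactors or metal ions. In brain, carriers for aspartate and glutamate link cytosolic redox balance and transmitter metabolism to the mitochondrion, and the glutamate carrier Slc25a18 is known as a gene of astrocytes.

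The RNA came from cells of rat brain at postnatal day 7, sorted by flow cytometry as A2B5/OTMP+ (A2B5 recognises gangliosides on young glia). By their labels they were perineuronal oligodendrocytes, which sit beside the cell bodies of neurons. A single population was sampled, with 4 biological replicates, each hybridized to chip A and to chip B, and no control group. The sources used here give neither the strain nor how many animals made up a replicate, so p-values concern the spread between these 4 samples, which may be technical in part. In bulk RNA, fewer cells of a type and less RNA per cell cannot be told apart.

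Every value was a linear ratio against a reference that the sources used here do not identify. A ratio of 1, or 0 on the log2 scale, means as much signal as in the reference. A ratio does not give a gene's brightness, does not show whether its transcript was detected, and cannot order genes by expression. "Higher" and "lower" below mean that the mean log2 ratio differed from 0 by limma, two-sided, at a Benjamini-Hochberg adjusted p under 0.05 over all probe sets of an array type. Errors are SDs of log2 ratios (n = 4).

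Median ratios of the arrays lay between 0.903 and 0.946 (chip A) and between 0.888 and 0.967 (chip B). Centring each array on its median added 0.12 (chip A) or 0.10 (chip B) to log2 ratios on average. Of 11 probe sets for 6 astrocyte markers 9 were higher than 1 and 1 was lower, with a median mean log2 ratio of 1.36. Of 7 probe sets for 6 oligodendrocyte lineage markers 1 was higher and 1 lower (median -0.03), and of 10 for 5 myelin genes none was called in limma, with 1 above 1 at an unadjusted p under 0.05 (median 0.06). Over all probe sets 9.21% (chip A) and 5.08% (chip B) were higher, and 30.1% and 27.1% lower. Most markers of the labelled cell type were not called against the reference, which also held for most of all probe sets. Most astrocyte probe sets (81.8%) were higher. Of 10 neuronal probe sets 5 were higher and 3 lower, of 8 microglial ones 1 was lower, and of 8 endothelial ones none was called in limma, nor at an unadjusted p under 0.05. The neuronal probe sets at 1 or more were of Gad1 (2.32), Snap25 (1.70) and Rbfox3 (1.13). The 3 lower ones were of Gad1 (-0.97 ± 0.06), Tubb3 (-0.44 ± 0.06) and Syt1 (-0.45 ± 0.03). Their ratios were low and even, which does not show less expression (see the bacterial controls below).

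The promoters of Slc25a34 and Slc25a18 are shown because these were the carriers whose ratios exceeded 2 on every array. The windows run from 250 bases before to 50 bases after the annotated start, from RefSeq for assembly GRCr8, at chr5:159219843-159220142 on the minus strand for Slc25a34 and chr4:155672919-155673218 on the plus strand for Slc25a18. Capitals mark matches on either strand to any of 6 motifs. The motif of TATA-binding protein was TATAAA, that of nuclear factor Y was CCAAT, and that of Sp1 was GGGCGG. The motif of nuclear factor I was TTGGCA, that of oestrogen-related receptors was AAGGTCA, and that of GA-binding protein was CCGGAAG.
Slc25a34: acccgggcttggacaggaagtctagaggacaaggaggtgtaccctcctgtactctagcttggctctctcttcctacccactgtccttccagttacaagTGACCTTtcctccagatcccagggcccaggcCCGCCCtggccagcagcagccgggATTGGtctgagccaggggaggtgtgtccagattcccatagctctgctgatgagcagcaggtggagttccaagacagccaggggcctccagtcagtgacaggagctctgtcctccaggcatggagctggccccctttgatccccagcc
Slc25a18: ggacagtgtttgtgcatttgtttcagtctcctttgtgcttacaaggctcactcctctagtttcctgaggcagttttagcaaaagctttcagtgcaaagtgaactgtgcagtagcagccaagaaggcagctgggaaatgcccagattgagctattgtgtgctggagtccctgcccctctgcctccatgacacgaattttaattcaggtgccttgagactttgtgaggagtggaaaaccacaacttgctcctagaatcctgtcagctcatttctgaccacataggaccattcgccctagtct
The Slc25a34 window held 1 match to the Sp1 motif, 1 to the nuclear factor Y motif and 1 to the oestrogen-related receptor motif, and the Slc25a18 window held none of the 6 motifs. AAGGTCA occurred in 4.37% of 27457 promoter windows, and Slc25a34 was the only one of 34 carrier genes with a window that held it. GGGCGG stood in 25 of the 34 carrier windows (73.5%), against 34.9% of all, and CCAAT in 19 (55.9%), against 37.7%. The windows of all genes were not matched to the carriers for gene type or for G and C content. Median G and C content was 60.3% for carriers and 52.3% for all. TATAAA stood in 2 carrier windows (5.88%, against 14.3%), TTGGCA in 4 (11.8%, against 13.6%) and CCGGAAG in 6 (17.6%, against 9.22%). The reverse strand of the nuclear factor Y motif can overlap the nuclear factor I motif. A match is a run of letters and not a shown binding site.

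Slc25a34, an orphan carrier whose closest relative in the family is Slc25a35, stood far above the reference. Its ratios were 14.93, 9.187, 10.21 and 8.132 in replicates 1 to 4. All 4 arrays lay at least 8-fold above the reference, with replicate 1 above the others. The mean log2 ratio was 3.37 ± 0.38, the 6th highest of 15866 on chip A and a 10.3-fold ratio. The probe sets next to it in rank were Adcy8 at 3.37 and, below it, one named by no gene at 3.27. Slc25a34 had no probe set on chip B, so its value rests on 1 probe set.

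Slc25a35 did not share this. Its ratios were 0.763, 0.997, 1.003 and 0.772, at or below the reference on all but replicate 3, with a mean of -0.19 ± 0.22 (limma adjusted p = 0.202, 95% interval -0.45 to 0.07). The genes beside Slc25a34 in the RefSeq gene order were mixed as well. Of 3 on each side, Fblim1 was lower at -0.45 ± 0.10 (limma adjusted p = 0.00518). Tmem82 ranged from 0.87 in replicate 1 to 4.063 in replicate 2 (0.66 ± 1.01, limma adjusted p = 0.24). Plekhm2 stood at 0.33 ± 0.31 (0.105) and Agmat, on chip B, at -0.05 ± 0.06 (0.454). The probe sets of Ddi2 differed, at 0.09 ± 0.49 (limma adjusted p = 0.755) and -1.37 ± 0.04 (6.89e-05). The second was low and even, which does not show less expression (see the bacterial controls below). The lncRNA gene LOC134487029 had no single-gene probe set.

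The mean log2 ratio over the 11 astrocyte probe sets was 1.88, 1.12, 1.70 and 1.07 in replicates 1 to 4. Single probe sets differed in their order over the replicates. The highest probe set of Aqp4, the water channel of astrocyte endfeet, had ratios of 23.27, 4.411, 7.971 and 3.04. Aldh1l1, a folate enzyme gene, had 7.53, 6.392, 6.31 and 3.337, and the higher probe set of Slc1a2, a glutamate uptake transporter, 5.277, 2.902, 12.2 and 3.506. These 3 probe sets were above the reference on all 4 arrays, as were Slc25a34 and Slc25a18. Of the 11 astrocyte probe sets 9 were higher (81.8%, against 9.21% of all chip A probe sets), these 3 among them. The other probe set of Slc1a2 had 2.04, 0.973, 1.012 and 2.008 and was not called. A probe set of Slc1a3, another glutamate uptake transporter, was lower, with 0.798, 0.827, 0.883 and 0.788. These ratios were even, like those of some bacterial controls, which does not show less expression. The part of astrocyte RNA in the ratios of Slc25a34 and of Slc25a18 was not tested.

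**Figure D1:**
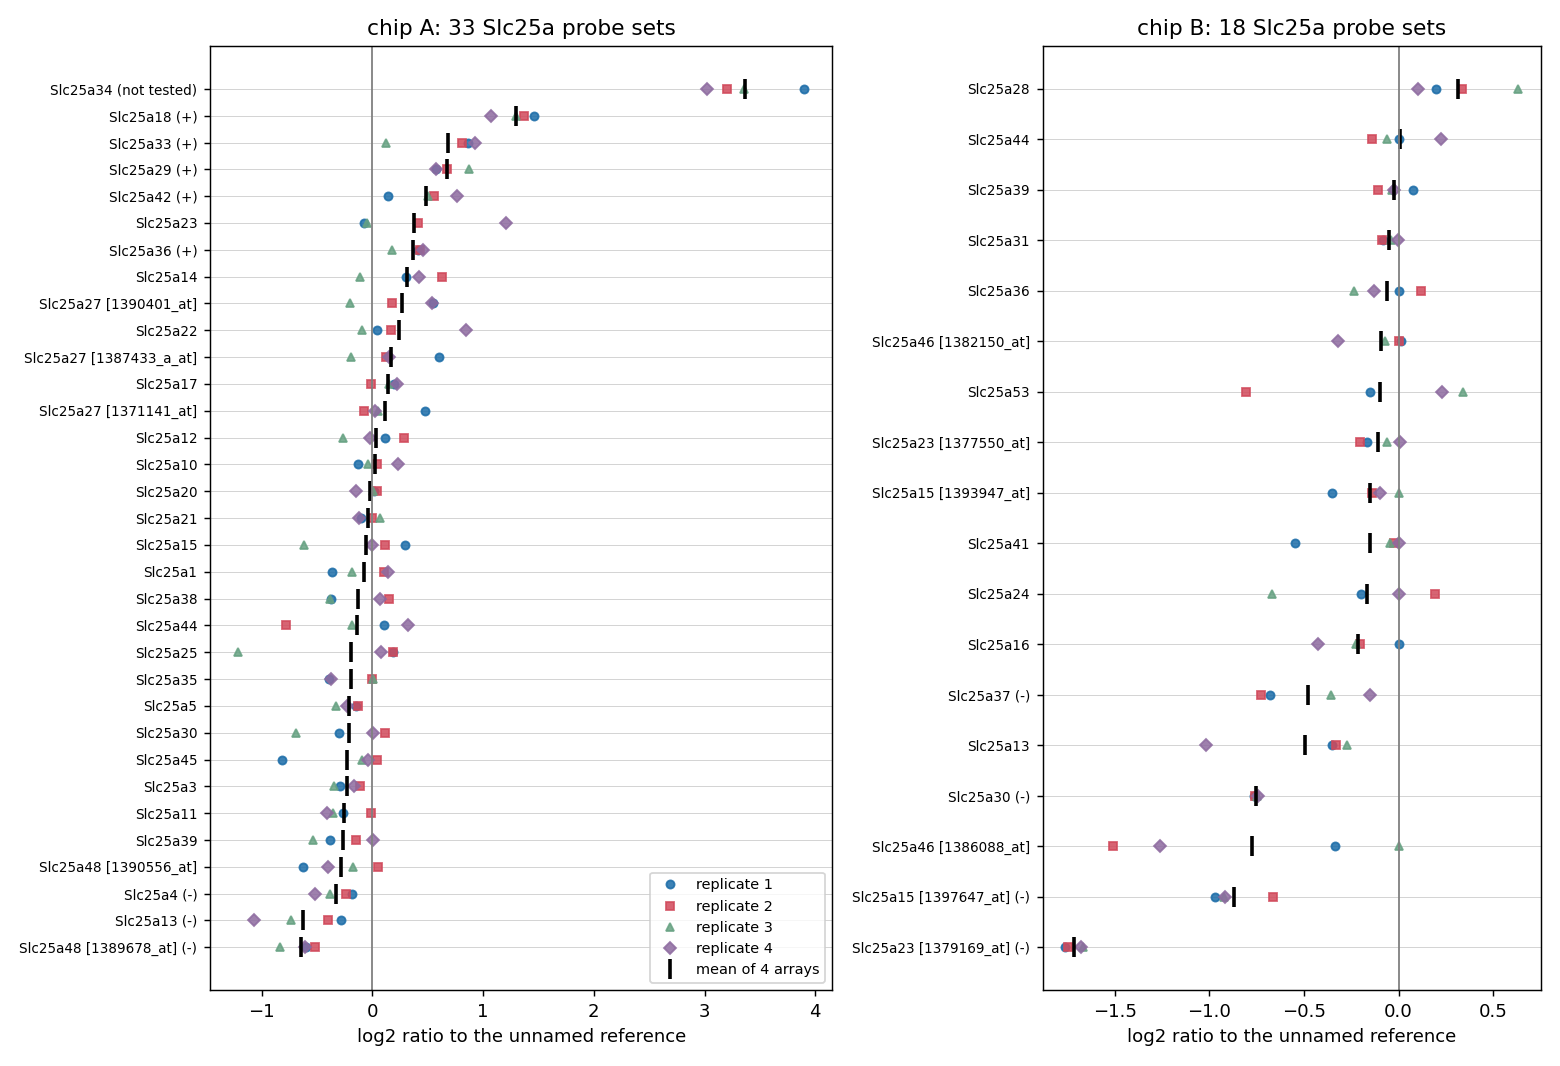
Log2 ratio to the unnamed reference (horizontal axis) of each Slc25a probe set on chip A (left, 33) and chip B (right, 18), with 1 marker per replicate and a black bar at the mean of 4 arrays. A plus or minus sign marks probe sets higher or lower than a ratio of 1 by limma. Slc25a34, with ratios from 8.132 to 14.93, lies apart from all other carriers, and most others lie close to 0.

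Without Slc25a34 the family lay near the reference. On chip A 5 of 32 probe sets were higher (15.6%, against 9.21% of all probe sets tested) and 3 were lower (9.38%, against 30.1%). On chip B 0 of 18 were higher (5.08% of all) and 4 were lower (22.2%, against 27.1%); 1 of the 18 was above 1 at an unadjusted p under 0.05 in limma. The median of the members' mean log2 ratios was -0.05 on chip A, against -0.11 over all probe sets, and -0.15 on chip B, against -0.11. Mean ratios lay within 1.25-fold of 1 for 23 of 32 members on chip A (71.9%, against 53.6%) and 12 of 18 on chip B (66.7%, against 58.2%). A mean log2 ratio of 1 or more in size was reached by 1 member of 32 (3.12%, against 9.59%) and 1 of 18 (5.56%, against 10.3%).

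By gene, 5 of 37 carriers were higher, 7 were lower and 25 had no call, while 7.70% of all 13810 named genes were higher and 36.1% lower. With each array centred on its median the chip A counts were 6 higher and 1 lower (11.8% and 23.3% of all probe sets) and the chip B counts 1 and 3 (5.68% and 23.7%), and by gene 7 were higher and 4 lower (10.1% and 29.0% of all named genes). Leaving out replicate 1, 2 or 4 left 3, 2 and 2 members higher on chip A, and leaving out replicate 3 left 1 lower. Of the 12 called probe sets, those of Slc25a18, Slc25a29, Slc25a48, Slc25a30, Slc25a15 and Slc25a23 passed under all 12 alternatives run. The other 6 lost their call in at least 3. The passing probe sets of Slc25a48, Slc25a30, Slc25a15 and Slc25a23 had low ratios within the range of bacterial controls (described below). For these, passing does not show less expression.

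**Figure D2:**
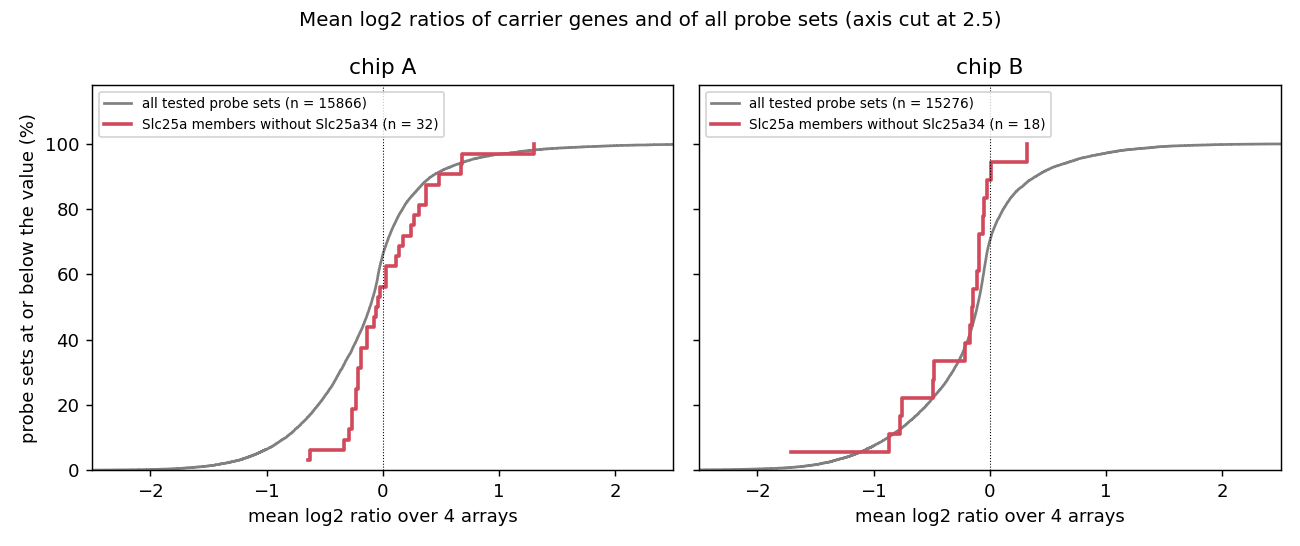
Share of probe sets (vertical axis, %) at or below each mean log2 ratio over 4 arrays (horizontal axis) on chip A (left) and chip B (right), for all tested probe sets (grey) and for Slc25a members without Slc25a34 (red). On chip A fewer members than other probe sets lie far below 0, with a lowest mean of -0.64, and on chip B 1 member lies above 0.01.

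Amino acid carriers held the highest ratio that was tested. Slc25a18, which brings glutamate into mitochondria, had ratios of 2.751, 2.591, 2.456 and 2.099 on chip A. All 4 arrays were more than 2-fold above the reference and close together, with replicate 4 lowest. The mean was 1.30 ± 0.17 (limma adjusted p = 0.000239), a 2.46-fold ratio at rank 305 of 15866. Over the alternatives the limma adjusted p ran from 0.000237 to 0.00249. The other glutamate carrier gene, Slc25a22, had 1.029, 1.122, 0.938 and 1.799, with only replicate 4 clearly raised, and was not called (0.24 ± 0.42, limma adjusted p = 0.317).

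Slc25a29, a carrier of basic amino acids, was higher, with ratios of 1.486, 1.596, 1.833 and 1.488, at 0.67 ± 0.14 (limma adjusted p = 0.0019). Slc25a15, the ornithine carrier of the urea cycle, had 3 probe sets that did not give the same answer. On chip B 1 probe set was lower, with 0.51, 0.632, 0.528 and 0.529 (-0.87 ± 0.14, limma adjusted p = 0.000765). The other chip B probe set stood at -0.15 ± 0.15 (0.202), and that of chip A at -0.05 ± 0.40 (0.817). On chip A replicate 3 was lowest, at 0.65, with the other arrays from 0.996 to 1.225.

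The aspartate-glutamate carriers of the malate-aspartate shuttle were each compared with the reference and not with each other. Slc25a12 (aralar) lay at the reference on chip A, with 1.082, 1.218, 0.832 and 0.988 (0.03 ± 0.23, limma adjusted p = 0.853). Slc25a13 (citrin) was lower on chip A, with 0.82, 0.759, 0.6 and 0.476 (-0.62 ± 0.35, limma adjusted p = 0.0222). On chip B its ratios were 0.785, 0.796, 0.827 and 0.494 (-0.49 ± 0.35), which did not pass (limma adjusted p = 0.0701). All 8 Slc25a13 arrays lay below 1, and replicate 4 was the lowest on both types. The chip A call was lost with centred arrays (-0.50, limma adjusted p = 0.0615) and without replicate 3 (-0.58, 0.076). That of chip B was gained without replicate 4 (-0.32, 0.0285).

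The glycine carrier gene Slc25a38, at -0.13 ± 0.29, and both probe sets of Slc25a44, a carrier of branched-chain amino acids, at -0.13 ± 0.48 and 0.01 ± 0.16, were not called (limma adjusted p from 0.442 to 0.954). For Slc25a44, replicate 2 was lowest and replicate 4 highest on both array types: 0.582 and 1.249 for the chip A probe set, 0.907 and 1.169 for that of chip B. In all, 2 of 12 probe sets for 8 amino acid carriers were higher and 2 were lower. Over all probe sets 9.21% (chip A) and 5.08% (chip B) were higher, and 30.1% and 27.1% lower.

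Carriers of cofactors and nucleotides gave the other higher calls, 3 of 7 probe sets for 5 genes, with 0 lower, also at an unadjusted p under 0.05 in limma. The shares over all probe sets were 9.21% (chip A) and 5.08% (chip B) higher, and 30.1% and 27.1% lower. Slc25a33, a pyrimidine nucleotide carrier, had ratios of 1.82, 1.756, 1.092 and 1.898 (0.68 ± 0.37, limma adjusted p = 0.0189), so replicate 3 stood apart near the reference. Its relative Slc25a36 had 1.33, 1.35, 1.127 and 1.369 on chip A (0.37 ± 0.13, limma adjusted p = 0.0153), again with replicate 3 lowest. Its chip B probe set was not called, at -0.06 ± 0.15 (0.559). Slc25a42, a carrier of coenzyme A, had 1.099, 1.467, 1.412 and 1.698 (0.49 ± 0.26, limma adjusted p = 0.0224).

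All 3 genes were above 1 on all 4 arrays, but their calls did not hold with fewer arrays. Slc25a33 did not pass without replicate 1 (0.62, limma adjusted p = 0.0648), 2 (0.64, 0.0555) or 4 (0.60, 0.0712). Slc25a36 did not pass without replicate 1 (0.35, limma adjusted p = 0.0611), 2 (0.35, 0.0571) or 4 (0.34, 0.0628), and Slc25a42 not without replicate 2 (0.47, 0.066), 3 (0.48, 0.0692) or 4 (0.40, 0.0711). In each case the mean moved by under 0.1. Slc25a39, which carries glutathione into mitochondria, stood at -0.27 ± 0.24 on chip A and -0.02 ± 0.08 on chip B, and Slc25a16 at -0.21 ± 0.17 on chip B, none of them called (limma adjusted p from 0.112 to 0.728).

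Adenine nucleotide and phosphate carriers had 0 higher and 2 lower of 11 probe sets, for 9 genes (0 and 4 at an unadjusted p under 0.05 in limma). Over all probe sets 9.21% (chip A) and 5.08% (chip B) were higher, and 30.1% and 27.1% lower. The ADP/ATP exchangers of oxidative phosphorylation lay a little below the reference. Slc25a4 had ratios of 0.879, 0.85, 0.769 and 0.697 and was lower (-0.33 ± 0.15, limma adjusted p = 0.0272). Slc25a5 had 0.903, 0.914, 0.796 and 0.851 (-0.21 ± 0.09, 0.0625), and the phosphate carrier gene Slc25a3 had 0.818, 0.924, 0.788 and 0.889 (-0.23 ± 0.11, 0.0544), neither called. Each of the 3 genes was below 1 on all 4 arrays, as were 39.1% of all chip A probe sets. Set against the array medians the differences were -0.21, -0.09 and -0.11, none called, and Slc25a4 was also lost without replicate 2 (-0.36, limma adjusted p = 0.0554), 3 (-0.31, 0.0831) or 4 (-0.27, 0.0882). Slc25a31, the ADP/ATP exchanger of testis, stood at -0.05 ± 0.04 on chip B (0.398).

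Among the exchangers of ATP-Mg for phosphate, most of which calcium regulates, Slc25a23 had the widest gap between probe sets of any carrier, 2.09 on the log2 scale. On chip A its ratios were 0.947, 1.332, 0.968 and 2.308 (0.37 ± 0.60, limma adjusted p = 0.266), high in replicate 4. On chip B 1 probe set had 0.89, 0.867, 0.958 and 1.005 (-0.11 ± 0.10, 0.228), while the other had 0.295, 0.298, 0.315 and 0.313 and was lower (-1.71 ± 0.05, limma adjusted p = 5.93e-05). Without replicate 4 the chip A mean was 0.10. Of the 3 probe sets of Slc25a23, 1 was thus lower and the others had no call. Slc25a24 at -0.17 ± 0.37, Slc25a41 at -0.15 ± 0.26, Slc25a25 at -0.19 ± 0.68 and the peroxisomal carrier gene Slc25a17 at 0.14 ± 0.10 were not called (limma adjusted p from 0.189 to 0.616). Slc25a17 was higher with centred arrays (0.26, limma adjusted p = 0.041).

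Of 4 carboxylate carrier probe sets 0 were called, while 9.21% of all chip A probe sets were higher and 30.1% lower. At an unadjusted p under 0.05 in limma only Slc25a11 passed. The citrate carrier gene Slc25a1 stood at -0.08 ± 0.24 (95% interval -0.35 to 0.20), the dicarboxylate carrier gene Slc25a10 at 0.03 ± 0.15 (-0.18 to 0.23) and the oxodicarboxylate carrier gene Slc25a21 at -0.04 ± 0.09 (-0.21 to 0.13). The oxoglutarate carrier gene Slc25a11, the malate-aspartate shuttle's other carrier, had 0.833, 0.992, 0.779 and 0.754 (-0.26 ± 0.18, limma adjusted p = 0.0706). Its 95% interval, -0.49 to -0.04, lay below 0. Slc25a11 was lower without replicate 2 (-0.34, limma adjusted p = 0.0397).

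Slc25a20, which exchanges carnitine and acylcarnitine for fatty acid oxidation, was level with the reference at -0.02 ± 0.09 (limma adjusted p = 0.83, 95% interval -0.19 to 0.15). Slc25a45 and Slc25a48 were only listed with it here, and what they carry was not tested. Slc25a45 stood at -0.23 ± 0.40 (limma adjusted p = 0.322). For Slc25a48, 1 of 2 probe sets was lower, with 0.661, 0.7, 0.559 and 0.654 (-0.64 ± 0.14, limma adjusted p = 0.0022). The other Slc25a48 probe set had 0.648, 1.034, 0.886 and 0.759 (-0.29 ± 0.29, 0.128), below 1 on 3 of 4 arrays.

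The relatives of the uncoupling proteins were 1 lower and 5 not called of 6 probe sets. Of all probe sets 9.21% (chip A) and 5.08% (chip B) were higher, and 30.1% and 27.1% were lower. Slc25a27, a neuronal member also called Ucp4, had 3 probe sets on chip A that lay together, at 0.12 ± 0.25, 0.17 ± 0.33 and 0.26 ± 0.36 (limma adjusted p from 0.217 to 0.456), each highest in replicate 1. The probe set at 0.26 passed without replicate 3 (0.42, limma adjusted p = 0.0482). Slc25a14 stood at 0.31 ± 0.31 (0.12) and passed without replicate 3, its lowest array (0.45, limma adjusted p = 0.0294). Slc25a30 was lower on chip B, where its ratios of 0.589, 0.592, 0.596 and 0.597 were almost identical (-0.75 ± 0.01, limma adjusted p = 0.000196). On chip A they were 0.812, 1.083, 0.621 and 1.006 (-0.22 ± 0.36, 0.308).

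**Figure D3:**
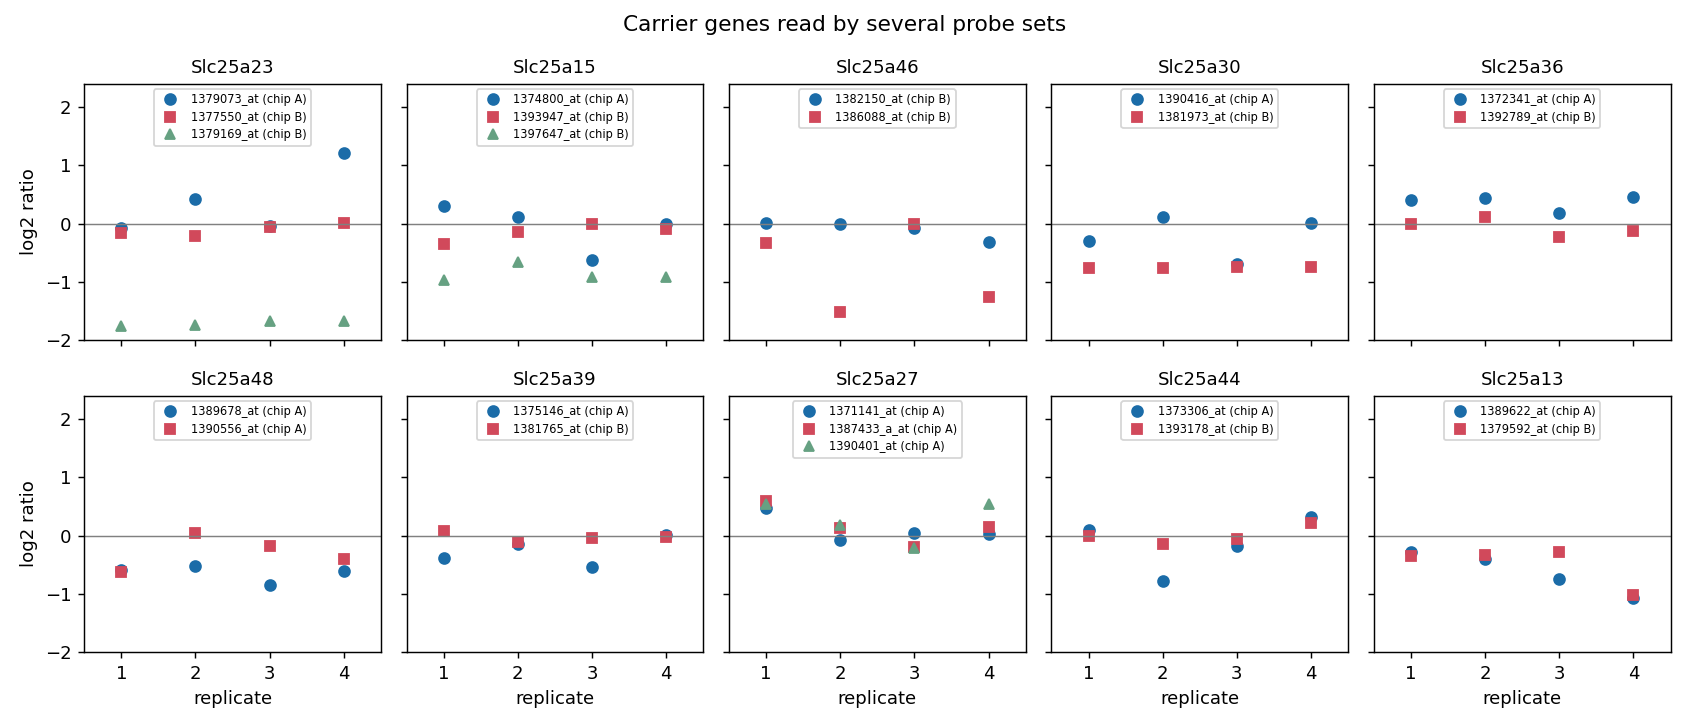
Log2 ratio (vertical axis) in each replicate (horizontal axis, numbers without order) for the 10 carrier genes read by several probe sets, with 1 marker shape per probe set. Slc25a23 has probe sets 2.09 apart, while those of Slc25a13, Slc25a44 and Slc25a27 lie within 0.15 of each other in their means.

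The mean ratios of the mitochondrial iron importers lay on opposite sides of 1 and were not tested against each other. Slc25a37 (mitoferrin-1) had 0.625, 0.605, 0.782 and 0.901 and was lower (-0.48 ± 0.27, limma adjusted p = 0.0396). Slc25a28 (mitoferrin-2) had 1.146, 1.26, 1.548 and 1.075, above 1 on all 4 arrays, and did not pass (0.32 ± 0.23, limma adjusted p = 0.0826). With centred arrays these exchanged sides of the threshold, at -0.37 (limma adjusted p = 0.0554) and 0.42 (0.0387). Slc25a37 was also lost without replicate 1 (-0.41, 0.14), 2 (-0.39, 0.122) or 3 (-0.52, 0.0793).

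Of the remaining carriers, Slc25a46, which sits in the outer membrane and bears on mitochondrial shape, had probe sets at -0.09 ± 0.15 and -0.78 ± 0.72. The second had 0.791, 0.351, 1 and 0.418, so replicates 2 and 4 were low, and it was not called (limma adjusted p = 0.125). Replicate 3 held exactly 1, a value that 23.0% of chip B probe sets held on some array. The sources used here do not say what an exact 1 stands for. Slc25a53 ranged from 0.573 in replicate 2 to 1.265 in replicate 3 (-0.10 ± 0.52, 0.753).

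Low and even ratios need a separate description. Slc25a30 on chip B had the SD of 0.01 that only 19 of 15276 probe sets matched or undercut (0.124%), and 1690 (11.1%) were as even as the lower of Slc25a23. Bacterial control probe sets, which read no rat gene, showed the same: 9 of 45 on chip B had mean log2 ratios below -0.5, down to -1.32, and none was above 0.5. On chip A 7 of 45 lay below -0.5, down to -1.34. The lower probe sets of Slc25a15 on chip B (-0.87 ± 0.14) and Slc25a48 on chip A (-0.64 ± 0.14) were less even. Their means also lay within the range of these controls. Such low ratios therefore do not show that Slc25a30, Slc25a23, Slc25a15 or Slc25a48 was less expressed. Whether these probe sets detected their transcripts was not tested.

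**Figure D4:**
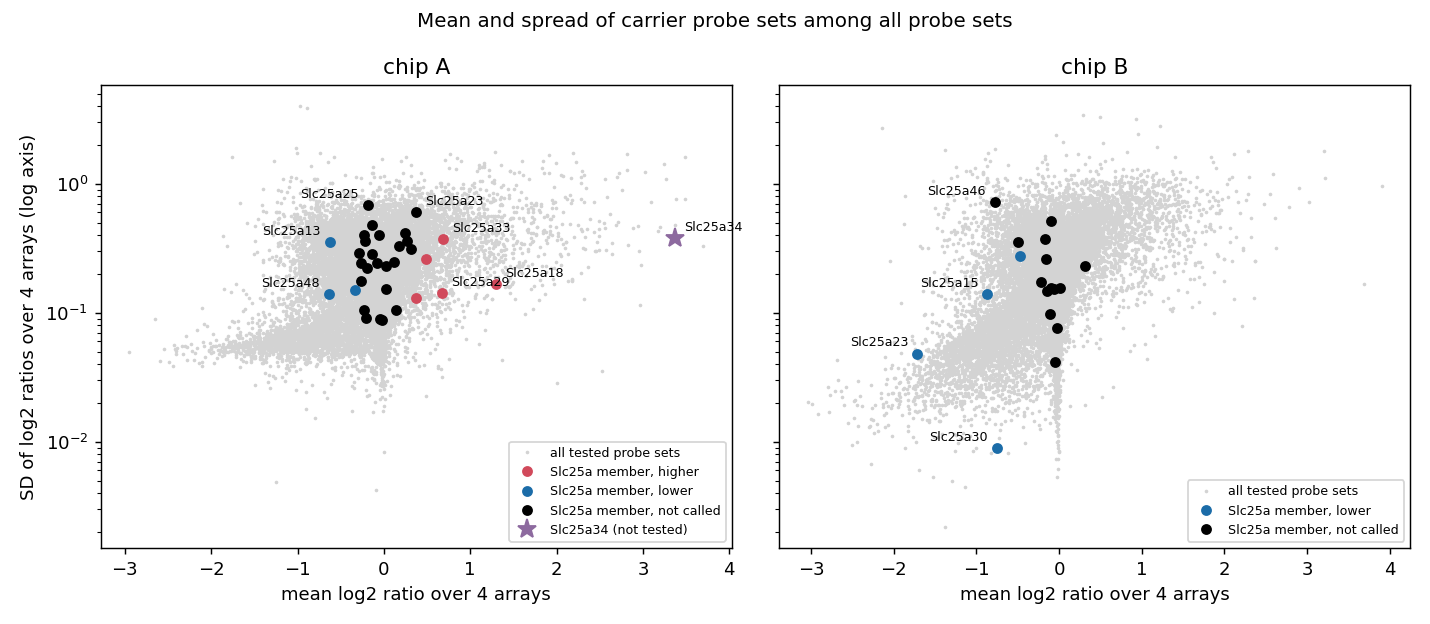
Mean log2 ratio (horizontal axis) and SD over 4 arrays (vertical log axis) of all tested probe sets (grey) and Slc25a members (red higher, blue lower, black not called, purple star Slc25a34) on chip A and chip B. The chip B probe sets of Slc25a23 and Slc25a30 lie among low, even values, at SDs of 0.05 and 0.01.

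Replicate 3 was the lowest array for many carriers on chip A. It held the lowest value of 15 of 33 carrier probe sets (45.5%), against 18.5% of all probe sets, and the highest of 3 (9.09%, against 36.1%). The median log2 ratio of the carriers was 0.01, 0.10, -0.17 and 0.07 in replicates 1 to 4, while that of all probe sets was -0.15, -0.10, -0.08 and -0.14. On chip B the same replicate held the lowest value of 2 of 18 (11.1%, against 17.3%). Slc25a25 was the widest case on chip A, with 1.14, 1.137, 0.432 and 1.057.

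The number of CG pairs in the promoter windows was compared after the values were seen. The median carrier window held 17 CG pairs, against 7 over all windows, and 60.3% G and C, against 52.3%. Slc25a18 had 2 CG pairs and Slc25a34 had 3, among the 3 lowest of 34, with Slc25a41 also at 3. In G and C content Slc25a34, at 60.7%, lay at the carrier median, and Slc25a18 had 48.0%. Slc25a41 was not called (-0.15 ± 0.26, limma adjusted p = 0.37), and the other called higher genes with a window, Slc25a42, Slc25a29 and Slc25a33, had 32, 37 and 40. Whether the number of CG pairs goes with the ratio was not tested. RefSeq windows for Slc25a30, Slc25a36, Slc25a37 and Slc25a46 were not used here.

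**Figure D5:**
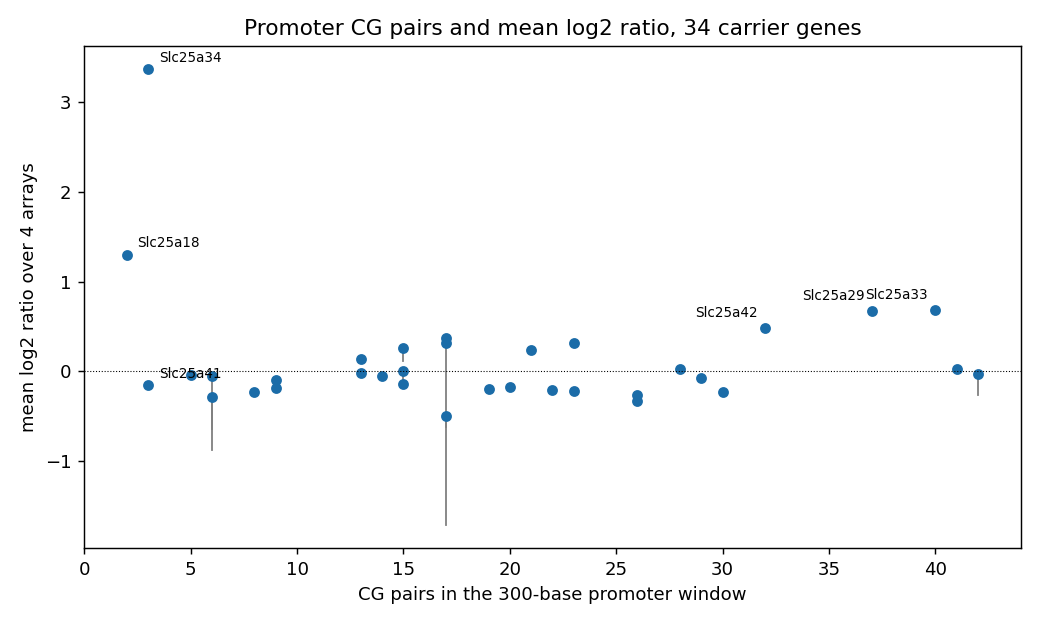
Mean log2 ratio over 4 arrays (vertical axis; a point at the highest probe set of a gene, with a line down to its lowest) against the number of CG pairs in the 300-base promoter window (horizontal axis) of 34 carrier genes. Slc25a34 and Slc25a18 lie at 3 and 2 CG pairs, next to Slc25a41, whose ratio is near 0.

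Other genes of mitochondrial transport gave a background to the family. Over all named genes 7.70% were higher and 36.1% lower. Of 5 carrier relatives under other names 2 were lower and 0 higher, Ucp1, the uncoupling protein of brown fat, at -0.90 ± 0.06 (limma adjusted p = 0.000289) and Ucp3, at -0.34 ± 0.05 on chip A (0.0089) and, not called, -0.03 ± 0.03 on chip B (0.565). The ratios of Ucp1, and of Ucp3 on chip A, were low and even, like those of some bacterial controls, which does not show less expression. Ucp2 varied most, with 0.603, 0.501, 0.932 and 1.433 (-0.33 ± 0.68, 0.379). Of 10 genes that bring carriers through the outer membrane and insert them 6 were lower and 0 higher (0 at an unadjusted p under 0.05 in limma as well). By probe set these were 8 of 16 (50%, against 30.1% of all chip A and 27.1% of all chip B probe sets), or 6 of 16 with centred arrays, and the median was -0.41. The same probe set of the import gene Tomm22 was lower on both array types (-0.56 on chip A, -0.43 on chip B) and is counted on each. The import genes included Timm8a1, with probe sets at -0.81 ± 0.33 (limma adjusted p = 0.00727) and -0.18 ± 0.13 (0.118), and Tomm20 at -0.61 ± 0.21 (0.00651).

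Of 13 other transporter genes 3 were higher, 6 lower and 1 had probe sets of both kinds. By probe set 4 of 16 were higher (25.0%, against 9.21% of all on chip A and 5.08% of all on chip B) and 7 lower (43.8%, against 30.1% and 27.1%), or 4 and 4 with centred arrays. Sfxn5, a sideroflexin, had 3.537, 2.482, 2.641 and 3.067 (1.54 ± 0.23, limma adjusted p = 0.000255), and the outer membrane channel gene Vdac3 stood at -0.49 ± 0.20 (0.0118). Of 7 genes of calcium uptake 1 was higher and 2 were lower, and by probe set 2 of 10 each (20%, against the shares over all probe sets just given). Letm1 was higher by its chip A probe sets, at 0.67 ± 0.24 (limma adjusted p = 0.006) and 0.30 ± 0.09 (0.0204), and not by that of chip B, at -0.01 ± 0.26 (0.966). Mcu, the uniporter's pore, was lower (-0.87 ± 0.05, limma adjusted p = 0.000189), again a low, even ratio of the kind that bacterial controls also gave.

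Of 19 enzyme genes that work on the carriers' solutes 4 were higher and 5 lower. By probe set these were 5 and 6 of 27 (18.5% and 22.2%, against 9.21% and 30.1% of all chip A probe sets). Both probe sets of Glud1, glutamate dehydrogenase, which acts on the glutamate that Slc25a18 brings in, were higher. The first had 2.155, 2.388, 2.444 and 2.134 (1.19 ± 0.10, limma adjusted p = 0.00017), and the second 2.138, 1.597, 2.536 and 1.476 (0.92 ± 0.36, 0.00616). Got2, the mitochondrial transaminase of the malate-aspartate shuttle, had probe sets at 0.49 ± 0.57 (0.144) and -0.45 ± 0.17 (limma adjusted p = 0.0112). Gpd1, the cytosolic enzyme of the other redox shuttle, had probe sets at -0.01 ± 0.26 (0.963) and -1.06 ± 0.06 (limma adjusted p = 0.000175), the lower one again low and even, with 0.463, 0.493, 0.5 and 0.459.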

How the data were processed

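Total RNA from 4 biological replicates was read on 2 array types (chip A and chip B). Per the labels' protocols, a Qiagen kit gave the RNA and Affymetrix small-sample reagents the labelled target. Per the submitters' processing notes, RMA was run (version not given). The values the authors deposited are linear ratios to a reference not given in the sources used here. A value of exactly 1 occurred in 23.0% of chip B probe sets, and one of 0.99 in 1.27%. On chip A these shares were 0.914% and 1.05%.

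Here ratios were put on the log2 scale with no pseudocount, and 57 control probe sets per type were left out. limma 3.58.1 in R 4.3.3 fitted an intercept per array type (eBayes), after tests on simulated data. Intervals are limma's 95% intervals. Array number limits the precision. Genes were named from the platform annotation, with 0 symbols updated through the RefSeq table. The rule named all carriers, with values in every sample for those called with a mean log2 ratio of 1 or more in size or with probe sets 1 or more apart. Carriers given in every sample beyond these, and all genes, motifs and lists, were chosen with earlier results of these data known. From other lists, genes with a call and a mean of 1 or more in size were due to be named, and others named were chosen after their values were seen. Protein sequences were not used here. Alternatives were array centring, a trended, robust prior, a 1.2-fold threshold (treat), a pseudocount of 0.1, the linear scale, 3 choices of probe sets and leaving out each replicate.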

Additional observations from a re-analysis of the deposited data

Results flagged for a closer look

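Of 51 carrier probe sets 7 had an array far from the other 3, measured by its gap to the nearest array over the whole range of the log2 ratios. Chance gives such a gap in about 1 in 20 groups. On chip A replicate 3 was low for Slc25a33 at 1.092, Slc25a36 at 1.127 and Slc25a25 at 0.432, and replicate 1 was low for Slc25a45 at 0.566. On chip B replicate 1 was low for Slc25a41 at 0.685, replicate 4 was low for Slc25a13 at 0.494, and replicate 2 was high for the lowest Slc25a15 probe set at 0.632. Slc25a13 was also lowest in replicate 4 on chip A, at 0.476.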

How the results depend on the processing

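No paired analysis was possible because each array type holds 1 group with 1 array per replicate number. The types also differ in their probe sets. On chip A the members higher than a ratio of 1 numbered 5, and 2 against a 1.2-fold change, with 2 to 6 when 1 replicate was left out. The lower ones numbered 3, but 1 with centred arrays, 1 against a 1.2-fold change and 5 on the linear scale, with 1 to 3 when 1 replicate was left out. On chip B the higher ones numbered 0, but 1 with centred arrays. By gene the higher ones numbered 5, and 2 against a 1.2-fold change, with 2 to 6 when 1 replicate was left out. The lower ones numbered 7, but 4 with centred arrays and 4 against a 1.2-fold change, with 4 to 6 when 1 replicate was left out. These counts of genes were 4 higher and 5 lower with each gene's median probe set. Of the 12 called probe sets 6 passed under all alternatives run, and 8 others not called passed under at least 1. No call changed direction. The causes were not tested, except that leaving out an array leaves fewer samples. Over all chip A probe sets the 1.2-fold test called 798 higher and 2894 lower, against 1462 and 4768. On chip B it called 471 higher, against 776, and the linear scale 472. Signal over background is not known from ratios.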
